A study of Mus musculus with 20 samples.

Results

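The perilipins are a family of 5 genes, Plin1 to Plin5, whose proteins coat the surface of lipid droplets. The genes were taken by name from the deposited tables, 5 of 55487 gene rows, and 4 of the 5 had enough reads to be tested: Plin1 did not. RNA had been sequenced from livers of female mice, 15 weeks old and of the C57BL/6N background, in 4 groups of 5 libraries. The mice were Plin2+/+ or lacked Plin2, and either had chow or were fasted for 24 h. The labels of 10 libraries give only the feeding state, so these were read as Plin2-/- by elimination from the series' design and are called Plin2-null. The sources used here do not say which part of Plin2 was targeted.

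Perilipins shield stored triglyceride from lipases and govern which proteins reach the droplet. PLIN1 is the main coat of fat cell droplets, and PLIN2 coats droplets in most other cells, where its protein is degraded unless it is bound to lipid. PLIN3 moves between the cytosol and nascent droplets. PLIN4 is built of long amphipathic repeats, and PLIN5 marks oxidative tissues and links droplets to mitochondria. In the liver fatty acids arrive from adipose tissue during a fast, droplets accumulate, and the fatty acid sensor PPAR alpha switches on oxidation genes. Plin2, Plin4 and Plin5 are known targets of PPARs. The comparisons below asked how each perilipin responds to fasting and whether the other 4 differ when Plin2 is missing.

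All 5 are protein-coding genes on the minus strand of GRCm38 in the GENCODE M21 annotation. Plin2 (ENSMUSG00000028494) lies at chr4:86648386-86670060 and Plin1 (ENSMUSG00000030546) at chr7:79720218-79732903. The other 3 stand on chromosome 17: Plin4 (ENSMUSG00000002831) at chr17:56100591-56109803, Plin5 (ENSMUSG00000011305) at chr17:56111601-56117596 and Plin3 (ENSMUSG00000024197) at chr17:56277476-56292873. Only 1797 bases separate Plin4 from Plin5, and 159879 bases separate Plin5 from Plin3. The last 17 bases of Plin4 overlap Hdgfl2 on the opposite strand, and the sources used here do not say whether strand was used in the counting.

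Shown are the 250 bases before the first listed RefSeq start of the 4 expressed genes (GRCm38.p6, minus strand, written 5′ to 3′). They were chosen because 3 of these genes were called higher on fasting and the fourth, Plin3, was not called. They cover chr4:86670060-86670309 for Plin2, chr17:56117549-56117798 for Plin5, chr17:56109783-56110032 for Plin4 and chr17:56290512-56290761 for Plin3. The Plin3 window lies wholly inside the gene as GENCODE M21 places it (chr17:56277476-56292873), and so is not upstream of that annotated 5′ end. Capitals mark AGGTCA, the hexamer that nuclear receptors such as the PPARs bind in pairs, the E-box CACGTG, the GC box motif GGGCGG, the CCAAT box and a TATA-like TATAA, on either strand.
Plin2: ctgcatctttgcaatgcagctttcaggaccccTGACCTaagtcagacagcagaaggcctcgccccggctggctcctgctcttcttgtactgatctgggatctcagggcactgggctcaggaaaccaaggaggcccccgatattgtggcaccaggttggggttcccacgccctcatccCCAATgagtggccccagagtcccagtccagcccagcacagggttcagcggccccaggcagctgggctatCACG
Plin5: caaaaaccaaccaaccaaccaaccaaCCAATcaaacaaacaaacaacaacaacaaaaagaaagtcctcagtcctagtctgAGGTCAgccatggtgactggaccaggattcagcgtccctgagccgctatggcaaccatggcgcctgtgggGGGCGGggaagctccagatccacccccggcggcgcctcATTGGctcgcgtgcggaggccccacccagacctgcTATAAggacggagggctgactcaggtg
Plin4: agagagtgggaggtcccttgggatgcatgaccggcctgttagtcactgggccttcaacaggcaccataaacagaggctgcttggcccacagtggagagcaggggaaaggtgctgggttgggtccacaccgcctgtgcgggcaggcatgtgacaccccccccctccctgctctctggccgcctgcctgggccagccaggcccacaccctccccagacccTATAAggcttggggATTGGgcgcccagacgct
Plin3: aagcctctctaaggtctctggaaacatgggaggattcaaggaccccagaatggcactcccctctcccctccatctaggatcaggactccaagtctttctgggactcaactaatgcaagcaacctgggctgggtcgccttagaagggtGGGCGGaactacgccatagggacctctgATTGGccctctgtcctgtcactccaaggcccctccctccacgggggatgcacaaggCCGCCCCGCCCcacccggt
Motifs were searched in 300 bases, these 250 and the 50 after the start. AGGTCA occurred in Plin2, 218 to 213 bases before the start on the minus strand of the gene, and in Plin5, 170 to 165 bases before it. It was found in neither Plin4 nor Plin3, and 16% of 27025 mouse promoters of this length hold it. TATAA stood 32 to 28 bases before the start of Plin4 and 27 to 23 before that of Plin5, and 25.5% of all promoters hold it. The closing CACG of Plin2 is the first part of CACGTG, whose last bases lie after the start (7.24% of all promoters). GGGCGG was found 3 times in Plin3, where 2 of the matches overlap by 1 base, and also in Plin2 and Plin5 (35.9%), and CCAAT in all 4 (37.9%). Plin1, at chr7:79732777-79733026, held none of the 5 motifs. RefSeq lists a second start for Plin5, whose 250 bases cover chr17:56117299-56117548. These too lie wholly inside the gene as GENCODE M21 places it (chr17:56111601-56117596), and so are not upstream of its annotated 5′ end. TATAA and CCAAT were not found in that window, and AGGTCA stood 14 to 19 bases after its start. A match of letters does not show that a factor binds there.

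Plin2 itself checks the labels. In TPM (transcript abundance per gene length, and so comparable between genes) it stood at 197 ± 51.2 in Plin2+/+ fed and 1019 ± 242 in Plin2+/+ fasted livers, and at 15.7 ± 5.21 in Plin2-null fed and 60.4 ± 21.6 in Plin2-null fasted livers (SD, n = 5 each). In CPM (reads per gene scaled to library size after TMM normalization), the 5 Plin2+/+ fed libraries had 310, 274, 203, 196 and 319 and the 5 Plin2-null fed libraries 32.1, 15.3, 16.8, 17.8 and 16.7. Of the latter, replicate 1 stood above the other 4. The Plin2+/+ fasted libraries had 1483, 1092, 1696, 1544 and 1653 CPM and the Plin2-null fasted libraries 78, 85.4, 83.8, 75.1 and 130 CPM. The ranges of the genotypes did not overlap in either state, nor did those of the feeding states in either genotype. The genotype difference was -3.72 ± 0.22 on the log2 scale in fed mice (SE; edgeR adjusted p = 1.3e-09) and -4.04 ± 0.23 in fasted mice (adjusted p = 3.08e-10). Reads of Plin2 that remained in Plin2-null livers rose on fasting by 2.20 ± 0.21 on the log2 scale, beside 2.52 ± 0.21 in Plin2+/+ livers.

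**Figure D1:**
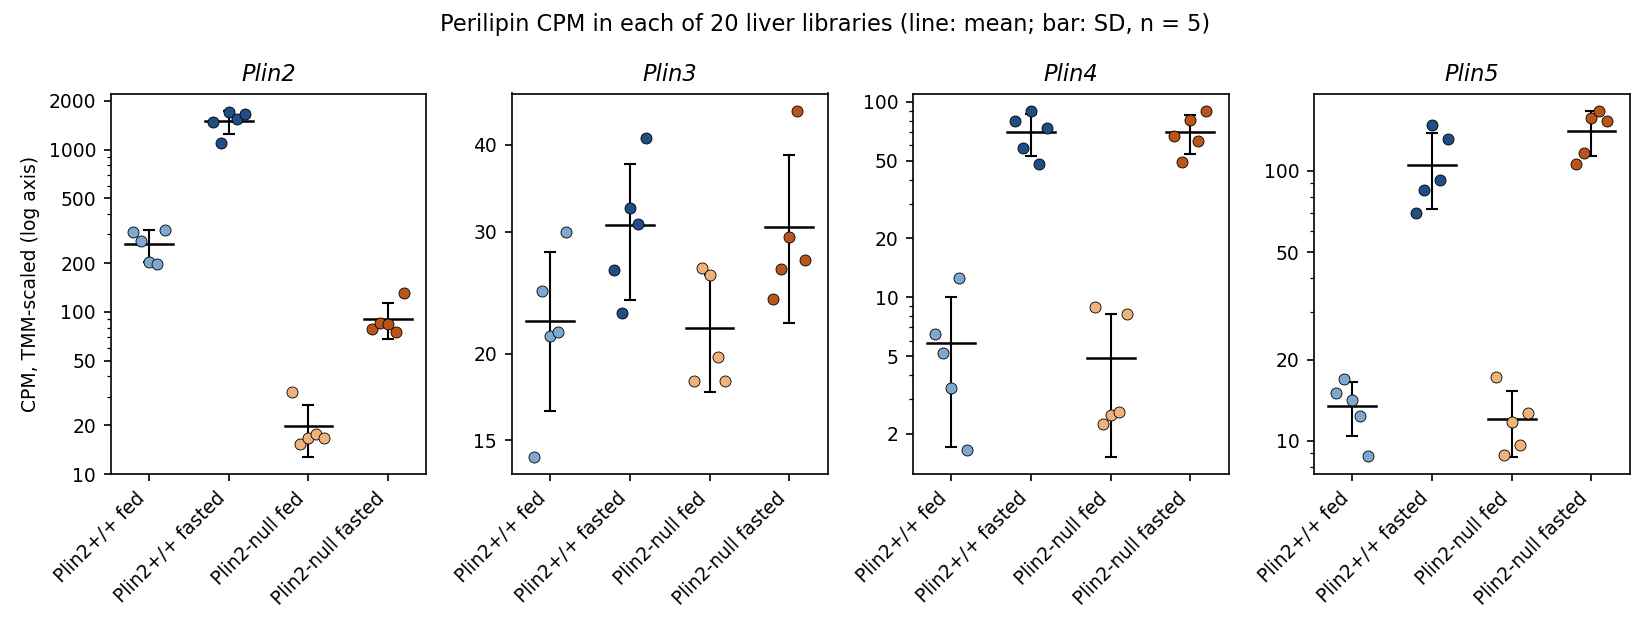
CPM (TMM-scaled, log axes that differ between panels) of 4 perilipins in each of 20 liver libraries, 1 point a library, with the group mean (line) and SD (bar, n = 5). Plin4 and Plin5 lie higher in fasted than in fed libraries of both genotypes without overlap, Plin3 spans only 14.2 to 44.8 CPM in all, and only Plin2 separates the genotypes.

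With Plin2 missing, no other perilipin was called different in fed or fasted livers. In fed mice edgeR called 3 genes, or 0.0184% of 16312 tested (0.0123% higher and 0.00613% lower in Plin2-null livers), Plin2 among the lower. In fasted mice it called 528, or 3.24% (1.51% higher and 1.73% lower), and of the perilipins again Plin2 alone. None of the other 3 tested members had an unadjusted p under 0.05 in either state, and DESeq2 and limma voom called none of them. Of all genes tested, 694 in fed and 3962 in fasted mice had an unadjusted p under 0.05 by edgeR. DESeq2 called 7 and 1404 of all genes, and limma voom 4 and 577. The differences and their 95% intervals are given gene by gene below, since a p above the threshold does not show that levels are equal.

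Plin5, the droplet coat of oxidative tissues, had the largest of these differences. Its CPM in fed livers were 15.1, 16.9, 14.2, 12.4 and 8.76 in Plin2+/+ and 17.3, 8.85, 11.7, 9.64 and 12.7 in Plin2-null mice, overlapping ranges. In fasted livers they were 70, 84.9, 148, 92.4 and 131 in Plin2+/+ and 106, 117, 157, 167 and 153 in Plin2-null mice. The fasted Plin2-null library was the higher in 21 of 25 pairs of libraries, yet the ranges overlapped. The log2 difference in fasted mice was 0.41 ± 0.21 (SE; 95% interval -0.03 to 0.85; adjusted p = 0.241 by edgeR, unadjusted 0.0687), a 1.33-fold value with an interval from 0.977 to 1.8. In fed mice it was -0.16 ± 0.22 (interval -0.62 to 0.29). The value in fasted mice ran from 0.39 to 0.45 under the planned changes of tool, scaling, filter or fitted groups. With 1 library left out it ran from 0.29 to 0.56. It fell to 0.06 (edgeR adjusted p = 0.888) when each library's trend with GC content was removed, an alternative added after seeing the data. The difference was called under none of these settings.

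Plin4, the family member with the longest repeat region, did not separate the genotypes. Its TPM in fasted livers were 34.8, 18.6, 30.8, 16.8 and 31 in Plin2+/+ and 25.2, 17.1, 20.9, 27.4 and 37 in Plin2-null mice, ranges that overlap. The log2 difference in CPM was 0.00 ± 0.44 (SE), with an interval from -0.93 to 0.93. Fed libraries had 6.46, 5.17, 3.42, 12.5 and 1.66 CPM in Plin2+/+ and 8.88, 2.25, 2.48, 2.57 and 8.18 CPM in Plin2-null mice, with a difference of -0.25 ± 0.47 (interval -1.24 to 0.73). The wide interval in fed mice goes with a spread of several fold between fed libraries of the same group. Fasted libraries spread less, from 47.8 to 89.5 CPM in Plin2+/+ and from 49 to 90 CPM in Plin2-null mice. The fit shares 1 estimate of the spread over all 20 libraries, so the interval in fasted mice is not set by fasted libraries alone.

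Plin3, the cytosolic and ubiquitous member, varied least across the groups of the 4 tested. In fed livers its CPM were 14.2, 24.6, 21.2, 21.5 and 30 in Plin2+/+ and 18.3, 26.6, 26, 19.8 and 18.3 in Plin2-null mice. In fasted livers they were 26.4, 22.9, 32.5, 30.8 and 40.9 in Plin2+/+ and 24, 26.5, 29.5, 44.8 and 27.3 in Plin2-null mice. The genotype ranges overlapped in both states. The differences were -0.03 ± 0.19 (interval -0.44 to 0.37) in fed and -0.01 ± 0.19 (interval -0.42 to 0.39) in fasted mice, on the log2 scale. The signs of the genotype differences of Plin3, and those of Plin4, turned under some other settings.

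Plin1, the coat of fat cell droplets, was barely detected. Over 5 libraries each, 1 read was counted in Plin2+/+ fed, 4 in Plin2+/+ fasted, 0 in Plin2-null fed and 8 in Plin2-null fasted livers. The 0 among 203934011 reads allows up to 0.0147 CPM, for counting error only. In Plin2-null mice the 8 reads came from 4 of 5 fasted libraries (exact two-sided permutation p = 0.0476, or 0.19 adjusted over the 4 comparisons of Plin1). Levels this low support no statement on a change.

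Fasting raised Plin2, Plin4 and Plin5 in both genotypes. In Plin2+/+ mice edgeR called 42.6% of the genes tested, 20.9% higher and 21.7% lower, and in Plin2-null mice 36.1%, 18.0% higher and 18.1% lower. The 3 called perilipins rose in each. With library size as the only scaling, 1854 of 6027 calls were higher in Plin2+/+ and 1376 of 5619 in Plin2-null mice, and the median of all genes moved by -0.162 and -0.214 on the log2 scale. Library-size scaling gives shares of a total, so these medians do not measure cell number or RNA per cell. Their cause was not tested. Apart from scaling, fewer cells of a type and less RNA per cell cannot be told apart in tissue RNA.

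Plin4 had the largest fold within the family by edgeR, with intervals that overlap those of Plin5 (3.05 to 4.03 for Plin5 and 2.78 to 4.90 for Plin4 in Plin2-null mice, log2). By limma on log2(TPM + 1) the fold of Plin5 was the larger in Plin2-null mice, 3.18 against 3.15. Plin4 rose from 2.46 ± 1.81 to 26.4 ± 8.14 TPM in Plin2+/+ and from 2.14 ± 1.44 to 25.5 ± 7.54 TPM in Plin2-null livers (SD, n = 5). The log2 changes in CPM were 3.59 ± 0.49 (SE; edgeR adjusted p = 1.78e-05) and 3.84 ± 0.50 (adjusted p = 1.33e-05), 12- and 14.4-fold. By this fold it stood at place 71 from the top of 16312 genes in Plin2+/+ and at place 61 in Plin2-null mice. In fed livers it was the lowest of the 4 tested perilipins.

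Plin5 rose from 17 ± 3.94 to 120 ± 39.1 TPM in Plin2+/+ and from 16.1 ± 4.01 to 156 ± 46.2 TPM in Plin2-null livers (SD, n = 5). Its log2 changes in CPM were 2.97 ± 0.23 (SE; edgeR adjusted p = 4.63e-09) and 3.54 ± 0.24 (adjusted p = 7.66e-10), 7.81- and 11.6-fold. Whether the response itself differed between genotypes was tested by the interaction, which was 0.57 ± 0.30 for Plin5 (interval -0.06 to 1.21; adjusted p = 0.399). That of Plin2 was -0.32 ± 0.29 (interval -0.91 to 0.27), of Plin4 0.26 ± 0.64 (-1.10 to 1.61) and of Plin3 0.02 ± 0.28 (-0.55 to 0.59). For the interaction edgeR called 0% of all genes tested, where 2250 genes had an unadjusted p under 0.05, DESeq2 called 62 and limma voom 2. None of the 4 perilipins was called by those tools.

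Plin3 did not pass the test on fasting. It had 15.5 ± 3.99 TPM in fed and 19.5 ± 5.99 in fasted Plin2+/+ livers, and 16.2 ± 3.33 and 19 ± 7.88 TPM in Plin2-null livers (SD, n = 5). The log2 differences in CPM were 0.46 ± 0.20 (SE; interval 0.06 to 0.87; edgeR adjusted p = 0.0615) and 0.48 ± 0.20 (interval 0.08 to 0.89; adjusted p = 0.0585). Both passed the threshold under some settings, and both were smaller on TPM, at 0.30 and 0.16 by limma on log2(TPM + 1).

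**Figure D2:**
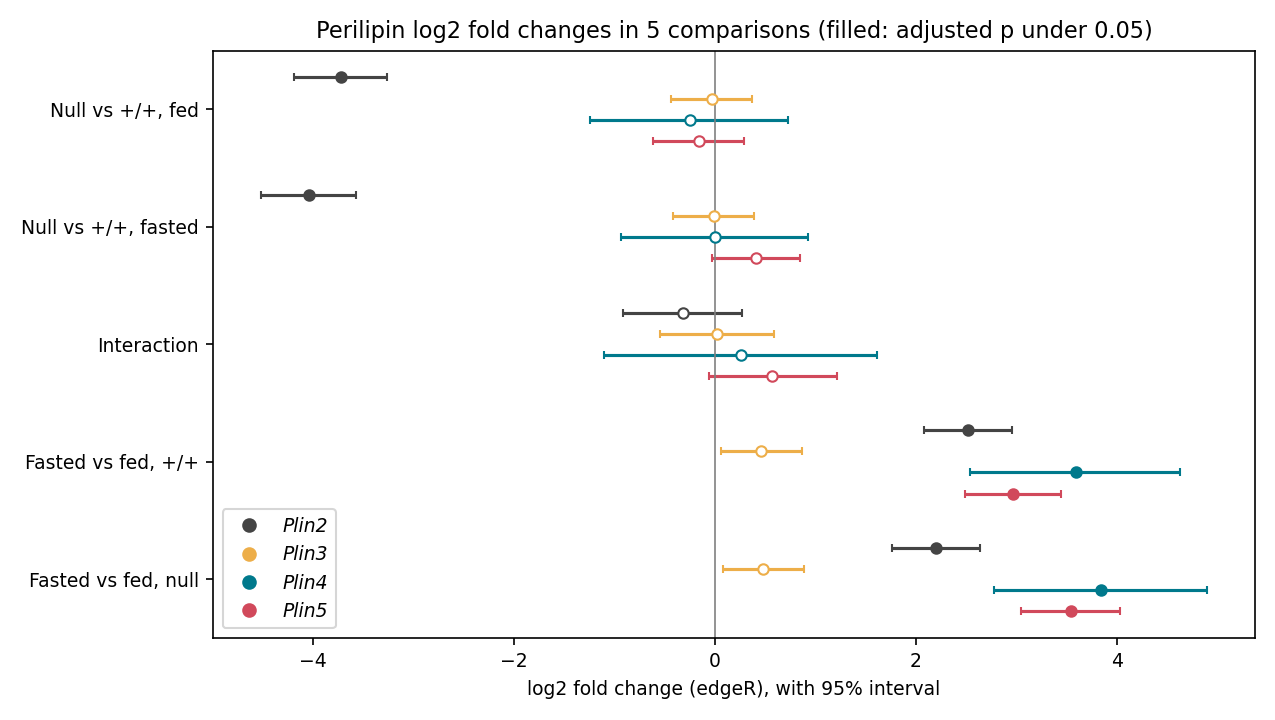
Log2 fold changes in CPM of 4 perilipins in each comparison (points), with 95% confidence intervals (lines) from the fit over all 20 libraries. Filled points have an adjusted p under 0.05. On fasting all intervals lie above 0, those of Plin3 narrowly and with open points, while for the genotype only those of Plin2 leave 0 out.

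The order of the family by TPM changed with feeding and, between genotypes, in the place of Plin2. By mean TPM, Plin5, Plin4 and Plin3 stood in that order in fasted livers of both genotypes. In Plin2+/+ fed livers Plin2 led in 5 of 5 libraries, Plin5 and Plin3 overlapped, and Plin4 was below both. After fasting the order was Plin2, Plin5, Plin4 and Plin3, of which Plin4 and Plin3 overlapped. In Plin2-null fed livers the ranges of Plin3, Plin5 and the remaining Plin2 reads overlapped, at 16.2, 16.1 and 15.7 TPM. In Plin2-null fasted livers Plin5 was the highest in 5 of 5 libraries, above Plin2, and Plin4 and Plin3 again overlapped.

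Summed over the 5 genes, perilipin TPM was 232 ± 51.6 in Plin2+/+ fed, 1185 ± 280 in Plin2+/+ fasted, 50.2 ± 8.18 in Plin2-null fed and 261 ± 73.5 in Plin2-null fasted livers (SD, n = 5). Plin2 made up 84.3% and 86% of the sum in Plin2+/+ fed and fasted livers, and 30.8% and 23.2% in Plin2-null livers. The share of Plin5 in fasted livers was 10.1% ± 2.13 in Plin2+/+ and 59.7% ± 4.06 in Plin2-null mice, a shift that a smaller sum gives even at equal Plin5. Without Plin2 the other 4 summed to 34.9 ± 3.53 TPM in Plin2+/+ and 34.5 ± 3.62 in Plin2-null fed livers, and to 165 ± 48.7 and 200 ± 58.5 TPM in fasted livers. In fasted mice the mean of Plin2 was lower by 959 TPM in the Plin2-null group, and that of the other 4 together was higher by 35 TPM. Plin5 differed by 36.4 TPM, Plin4 by -0.876 and Plin3 by -0.514, none of them called. With 1 library left out the difference of Plin5 ran from 20.5 to 48.5 TPM and that of the 4 together from 15.2 to 50.7 TPM. The lowest values came without Plin2-null fasted replicate 4 and the highest without Plin2+/+ fasted replicate 5. Without Plin2+/+ fasted replicate 2 the difference of the 4 together was 22 TPM. The total in Plin2-null livers was 0.217 of that in Plin2+/+ livers when fed and 0.22 when fasted. These sums hold RNA only, and the reads left of Plin2 may not encode the protein, which was not tested.

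**Figure D3:**
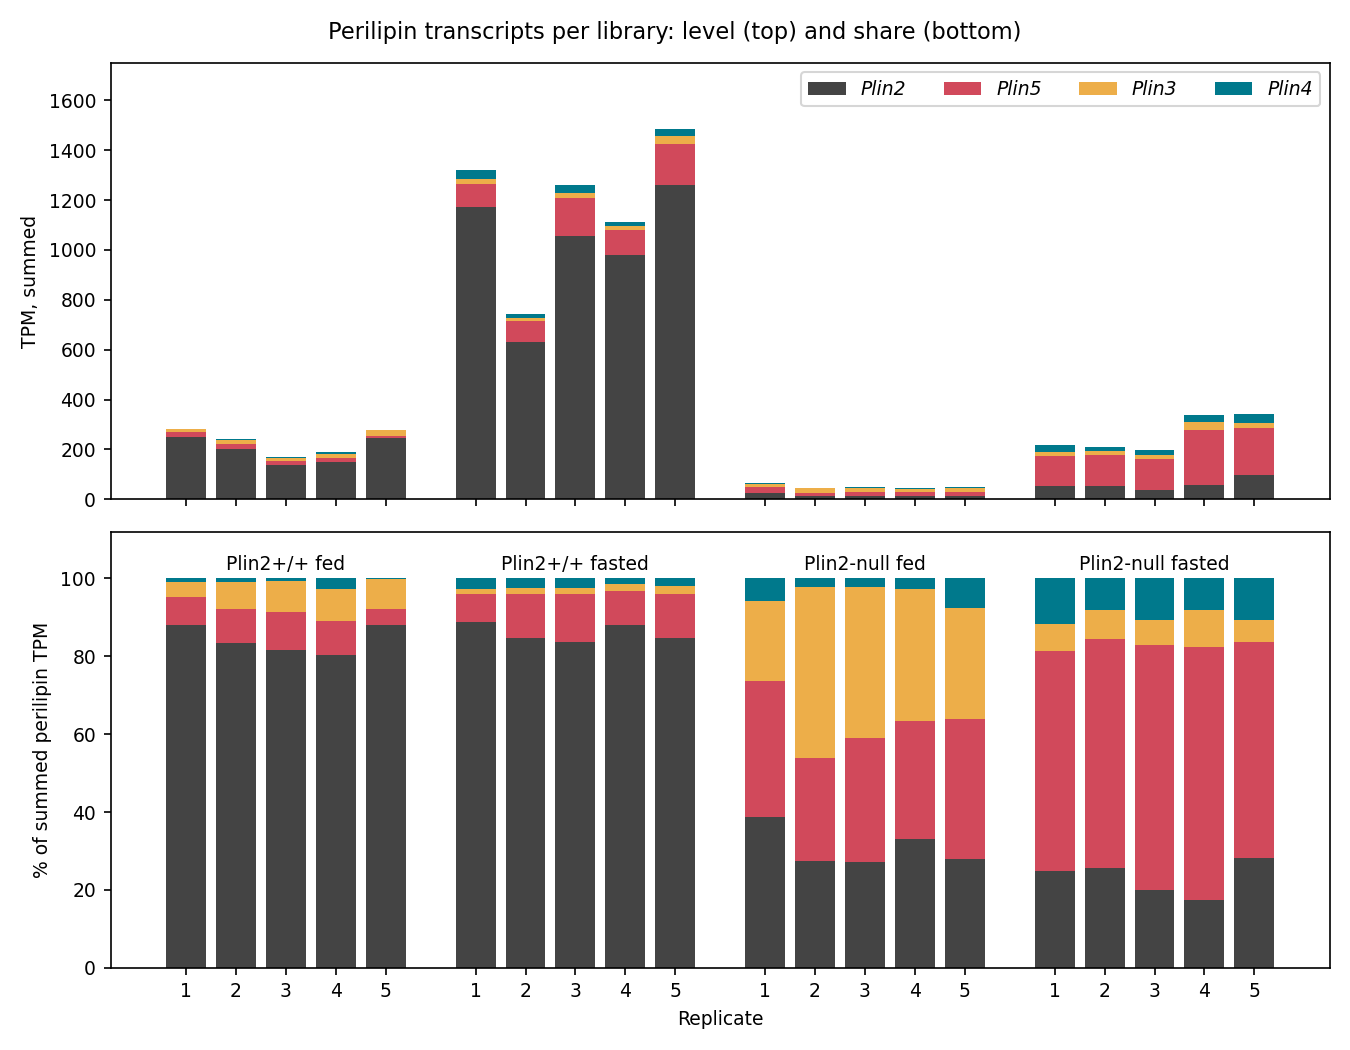
TPM of Plin2, Plin3, Plin4 and Plin5 stacked in each of 20 libraries, 1 bar a library, as the level (top, TPM) and as the share of the sum (bottom, percent; Plin1 is too low to show). Plin2 fills most of every Plin2+/+ bar (mean share 84.3% fed and 86% fasted), and Plin5 holds 55.6% to 64.9% of each Plin2-null fasted bar.

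Partners of the perilipins in lipolysis were described from a list of 6. In Plin2+/+ mice 3 rose on fasting and none fell (median log2 fold change 0.86, against -0.01 over all genes). There 20.9% of all genes rose and 21.7% fell. In Plin2-null mice 5 rose and none fell (median 2.05, against -0.01), where 18.0% of all genes rose and 18.1% fell. Pnpla2, the droplet triglyceride lipase ATGL, rose by 2.76 ± 0.27 and 2.75 ± 0.27 (log2, SE), from 22.7 to 153 CPM and from 19.9 to 134 CPM. Hilpda, an inhibitor of that lipase, rose by 2.19 ± 0.37 and 2.57 ± 0.37, and Mgll, the monoglyceride lipase, by 0.98 ± 0.25 and 1.81 ± 0.26. G0s2, another ATGL inhibitor, went from 22.3 to 37.2 CPM in Plin2+/+ mice (adjusted p = 0.284 by edgeR) and rose from 24 to 117 CPM in Plin2-null mice (adjusted p = 0.00368). Its difference between genotypes in fasted mice was 1.66 on the log2 scale and was not called (adjusted p = 0.0855). The interaction of G0s2 was 1.55 ± 0.75 (adjusted p = 0.365 by edgeR). Of the 6 interactions 0 were called, so the counts of 3 and 5 do not show that the fasting responses differed. Abhd5, the ATGL activator that PLIN1 and PLIN5 bind, had 23.8 and 23 CPM in Plin2+/+ and 22.4 and 22.6 CPM in Plin2-null mice, fed and fasted, and was singled out after its values were seen. Between genotypes edgeR called 0 of 6 in each state. At an unadjusted p under 0.05 there were 0 in fed and 2 in fasted mice, beside 694 and 3962 of all 16312 genes tested. DESeq2 called 0 and 1 of the 6, beside 7 and 1404 of all genes. Limma voom called 0 and 0, beside 4 and 577.

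Of 14 other lipid droplet proteins 13 were tested. On fasting 6 rose and 3 fell in Plin2+/+ mice (median 0.13), and 6 rose and 2 fell in Plin2-null mice (median 0.37). Of all genes 20.9% rose and 21.7% fell in Plin2+/+ mice, and 18.0% and 18.1% in Plin2-null mice. The falls on this list were near that share. Cidec, which fuses droplets, had the smallest adjusted p in both genotypes (2.29e-09 and 9.35e-10 by edgeR). Fitm2, an endoplasmic reticulum protein needed for droplet budding, rose by 1.94 ± 0.15 and 1.99 ± 0.16 (log2, SE). Hsd17b11 rose by 1.60 ± 0.15 and 1.82 ± 0.15, and Hsd17b13 by 1.33 ± 0.13 and 1.45 ± 0.13. Acsl3, an acyl-CoA synthetase of nascent droplets, and Pnpla3, a relative of ATGL driven by feeding, fell in both genotypes (-1.76 ± 0.17 and -3.67 ± 0.45 in Plin2+/+ mice), and Fitm1 in Plin2+/+ mice (interaction 2.44 ± 0.77, adjusted p = 0.243). These 3 were named after their values were seen. Between genotypes 0 of 13 were called in either state. At an unadjusted p under 0.05 there were 2 in fed and 6 in fasted mice, beside 694 and 3962 of all 16312 genes tested. DESeq2 called 0 and 2 of the 13, beside 7 and 1404 of all genes. Limma voom called 0 and 1, beside 4 and 577.

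Among 19 PPARs and PPAR targets, 16 rose and 1 fell in Plin2+/+ mice (median 1.77), and 17 rose and 1 fell in Plin2-null mice (median 1.95). The shares of all genes were 20.9% rising and 21.7% falling in Plin2+/+ mice, and 18.0% and 18.1% in Plin2-null mice. Pex11a, a peroxisome division protein, rose by 2.69 ± 0.15 and 3.10 ± 0.15 (log2, SE), close in size to Plin5. Ppara itself, which encodes PPAR alpha, rose by 0.85 ± 0.19 and 0.65 ± 0.19, and Ppard was the 1 that fell (-2.35 ± 0.30 and -2.24 ± 0.29). Both were named after their values were seen. None of the 19 was called between genotypes. At an unadjusted p under 0.05 there were 2 in fed and 2 in fasted mice, beside 694 and 3962 of all 16312 genes tested. DESeq2 called 0 and 1 of the 19, beside 7 and 1404 of all genes. Limma voom called 0 and 0, beside 4 and 577.

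Likeness to each perilipin called on fasting was measured for 8819 genes. The measure was the root mean square difference, across libraries, between mean-centred log2 CPM values. For Plin2, over the 10 Plin2+/+ libraries, the nearest genes were Lgals4 (0.20), Pex11a (0.22), Clstn3 (0.24), Slc25a34 (0.27) and Crat (0.28), beside a spread of Plin2 itself of 1.29. Plin5 stood at 0.46 from Plin2 in these libraries, Plin4 at 1.05 and Plin3 at 1.08. For Plin5, over all 20 libraries, they were Pex11a (0.36), Slc27a1, a fatty acid transporter (0.39), St3gal5 (0.44), Cntnap1 (0.44) and Slc22a5, the carnitine transporter (0.46), beside a spread of 1.67. For Plin4 they were Cdkn1a (0.61), Ehhadh (0.66), Aqp4 (0.67), Mfsd2a (0.68) and, at the fifth place, Plin5 (0.69), beside a spread of 2.09. The libraries share the contrast of fed and fasted mice, so these distances carry no test.

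Genes around Plin4, Plin5 and Plin3 on chromosome 17 had smaller fasting changes than Plin4 and Plin5. Of 9 neighbours 8 were tested. In Plin2+/+ mice 3 rose and 1 fell on fasting (median 0.47), and in Plin2-null mice 5 rose and none fell (median 0.51). Of all genes 42.6% and 36.1% were called in these comparisons, beside 4 and 5 of these 8, and nothing particular to the segment is read from so few genes. Lrg1, a secreted glycoprotein, rose by 0.94 ± 0.29 and 1.90 ± 0.30 (log2, SE), the largest values among the 8. Hdgfl2, which overlaps Plin4, changed by -0.34 ± 0.18 and 0.19 ± 0.18 and was not called.

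**Figure D4:**
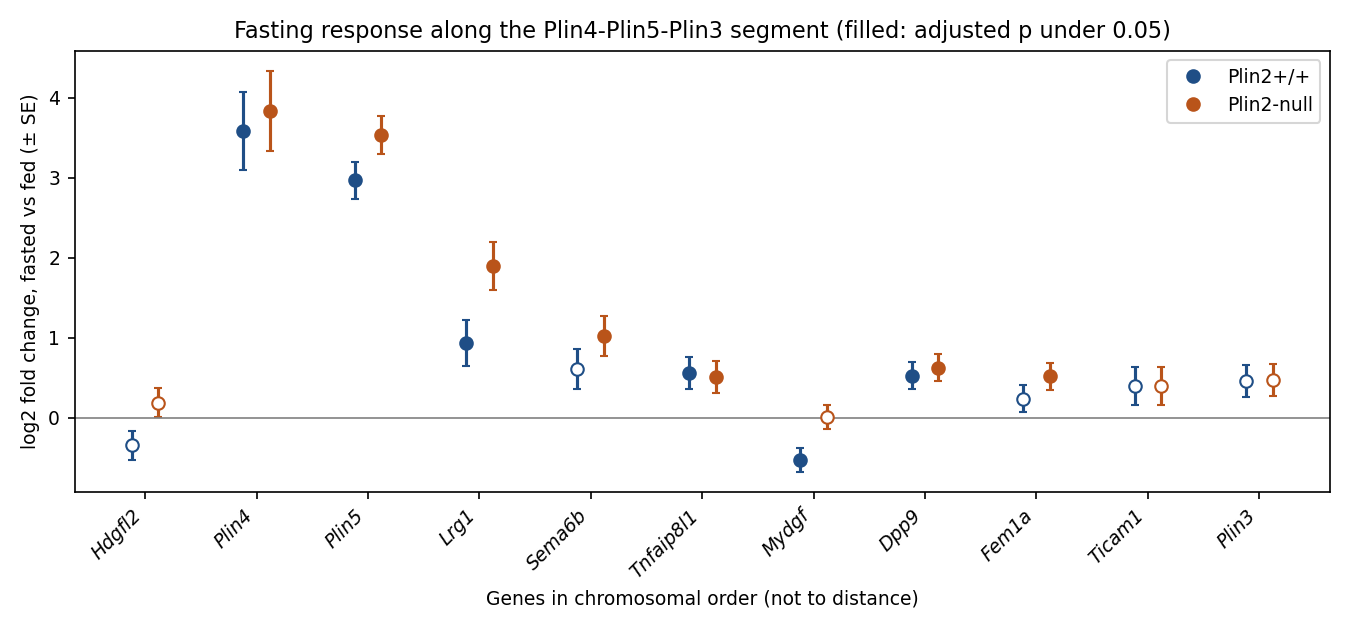
Log2 fold change on fasting, in Plin2+/+ and Plin2-null mice (points, with SE bars), of tested genes on the chromosome 17 segment that holds Plin4, Plin5 and Plin3, in the order in which they lie and not to distance, filled where the adjusted p was under 0.05. Plin4 and Plin5 stand at 2.97 or more in both genotypes, and no neighbour exceeds 1.90.

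Markers of other cells that carry perilipins were read beside these results. Of 8 adipocyte markers, Cfd, Retn and Lep were at 0 in every library and Adipoq had a mean under 0.1 CPM in each group. Their summed CPM was 9.67 to 23.3 in Plin2+/+ fed, 15.3 to 18.4 in Plin2+/+ fasted, 9.29 to 14.3 in Plin2-null fed and 10 to 15.8 in Plin2-null fasted livers, most of it Fabp4. Adrb3 had group means of 1.49 to 4.43 CPM. Of the 3 adipocyte markers tested, Fabp4 was called higher and Adrb3 and Acvr1c lower on fasting in both genotypes. Of 6 striated muscle markers 5 had means under 0.1 CPM in every group, and the sum was at most 0.9 CPM in any library. The 9 stellate cell markers summed to 433 to 725 CPM over all libraries. On fasting 5 of them were lower in Plin2+/+ and 3 in Plin2-null mice, where 21.7% and 18.1% of all genes were lower. Des and Colec11 were called higher in Plin2-null than in Plin2+/+ fasted livers, where 1.51% of all genes were. Of 7 Kupffer cell markers 5 fell on fasting in each genotype, beside the same 21.7% and 18.1% of all genes. Their summed CPM was 325 to 422 in fed and 172 to 307 in fasted Plin2+/+ livers, and 250 to 618 in fed and 240 to 302 in fasted Plin2-null livers. Their part in the perilipin values was not tested. All 8 hepatocyte markers were expressed, at a sum of 90293 to 175899 CPM. On fasting 5 of them were called higher and 1 lower in Plin2+/+ mice, and 2 higher and 1 lower in Plin2-null mice. Of all genes 20.9% and 18.0% were called higher in these comparisons. Between genotypes Cps1, a urea cycle enzyme, was called lower in Plin2-null fasted livers (-0.97 ± 0.23 on the log2 scale, SE; edgeR adjusted p = 0.0318). There 1.73% of all genes were called lower.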

How the data were processed

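Liver RNA was sequenced in 20 libraries. The authors deposited raw counts per gene and TPM values. Reads were aligned with HISAT2 1.2.1 and counted with featureCounts 1.4.6-p1, per the submitters' processing notes, which list GRCh38 although the gene identifiers are mouse. No source used here names the strand setting or annotation version. The deposited TPM values follow from the counts and gene lengths that match GENCODE M21 within 1% for 98.6% of 7109 genes. For Plin4 the implied length was 6350 bases, against 5777 in that annotation, which bears on its TPM and not on its CPM. The header of the TPM table was shifted by 1 cell, and 20 of 20 columns followed their own library best.

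Nothing in the labels says that libraries of a group came from separate animals, and p-values then reflect only the spread of these samples, which may be technical. No 2 libraries of a group agreed within sampling noise (40 pairs, smallest chi-square per degree of freedom 45.3). Counting precision rests on totals of 25506471 to 65579038 counts a library. The 10 libraries without a genotype label were assigned by elimination, not from any count.

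The test was edgeR 4.0.16 in R 4.3.3 on the counts (filterByExpr, TMM, glmQLFit robust over all 20 libraries, 1 coefficient per group, glmQLFTest). Adjusted p are Benjamini-Hochberg values over 16312 genes, and a gene was called under 0.05. SE was taken as the log2 fold change divided by the root of F. The interaction subtracts the genotype difference in fed mice from that in fasted mice. CPM are computed from the deposited counts and TMM-scaled library sizes. Plin1, below the filter, was tested by exact permutation of CPM. On simulated counts for the genotype comparison in fasted mice, among 16203 genes, 32.8%, 70.1% and 90.9% of genes changed 1.5-, 2- and 4-fold were recovered, with 5 false calls. The simulated counts varied independently around 1 mean shared by all groups, apart from the changed genes, without a trend across a library. These rates may therefore not hold for the real libraries, and no fold as small as the 1.33 of Plin5 was simulated. Alternatives were DESeq2 1.42.0, limma 3.58.1 (voom, and on log2 of TPM plus 1 or 0.1), other scalings and filters, a fit restricted to the compared groups, and the omission of each library.

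The 5 members and all lists were chosen with earlier results of these data known. Besides the members, up to 4 genes per list with the smallest adjusted p, the chromosome 17 neighbours and the 5 nearest genes in pattern were named by rule. Promoters came from RefSeq (GRCm38.p6) and were matched by symbol for 5 of 5 members.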

Additional observations from a re-analysis of the deposited data

Results flagged for a closer look

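Within each group of 5, the highest and lowest libraries were checked for a gap to the nearest other library that exceeds Dixon's 95% critical share of the group's range. Of 19 member and group combinations checked, 4 passed. Chance flags about 1 in 20 groups, a rate that does not hold for Plin1, where 1 read among zeros passes by construction. Plin2 in Plin2-null fed replicate 1 stood at 25 TPM, against 12.9 to 14.5 TPM in the other 4 libraries of its group. Without it the group's mean was 13.4 TPM, the genotype difference in fed mice -3.97 and the fasting change in Plin2-null mice 2.44 on the log2 scale, both still called by edgeR. The other 3 were Plin1 values that rest on 1 to 5 reads: 0.0114 TPM in Plin2+/+ fed replicate 3 (1 read), 0.0617 TPM in Plin2+/+ fasted replicate 4 (3 reads) and 0.0579 TPM in Plin2-null fasted replicate 5 (5 reads).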

How the results depend on the processing

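Of 20 tested results (4 perilipins in 5 comparisons), 8 were called under every setting run and 10 under none. The exceptions were both fasting changes of Plin3. With each library's GC trend removed they were 0.51 (adjusted p = 0.0298) in Plin2+/+ and 0.48 (0.0452) in Plin2-null mice, and with only the compared groups fitted 0.48 (0.0405) in Plin2-null mice. With 1 library left out they ran from 0.34 to 0.59 in Plin2+/+ mice, called without Plin2+/+ fed replicate 5, Plin2+/+ fasted replicate 2 or Plin2-null fasted replicate 4. In Plin2-null mice they ran from 0.30 to 0.56, called without Plin2+/+ fed replicate 1 or 5, Plin2+/+ fasted replicate 5, Plin2-null fed replicate 2 or 3, or Plin2-null fasted replicate 1. The cause was not tested. The Plin1 difference on fasting in Plin2-null mice, 0.0402 CPM, ran from 0.0244 to 0.0502 CPM with 1 library left out and its unadjusted permutation p, 0.0476 with all libraries, was above 0.05 in 9 of 10 such cases and reached 0.0952. It was not called after adjustment over the 4 comparisons (0.19). With no filter on low counts edgeR gave it an adjusted p of 0.0426.

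Uncalled signs turned for Plin3 between genotypes in 8 of 30 settings when fed and 6 of 30 when fasted, for Plin4 in 1 of 30 and 12 of 30, and for their interactions in 13 of 29 and 1 of 29. Genes called between genotypes in fasted mice were 528, and 108 with library size alone (70 of them higher, against 246 of 528), 319 with no filter, 1404 by DESeq2, 20 and 14 on TPM with 1 and 0.1 added, 104 with 2 groups fitted, and 13 to 1794 with 1 library left out: 13 without Plin2+/+ fasted replicate 2, 15 without Plin2-null fasted replicate 5 and 1794 without Plin2+/+ fasted replicate 5. In fed mice 3 were called, against 7 by DESeq2, and 7 and 8 on TPM. The interaction had 1 with no filter, 2 with a stricter filter and 1 on TPM with either addition. No paired analysis was possible because the titles give every library a number of its own, which no other group shares.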
